A study of Mus musculus with 10 samples.

Results

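The genes described are the 4 membrane-associated guanylate kinases (MAGUKs) of the PSD-95 family, Dlg1 to Dlg4, and the 4 SAP90/PSD-95-associated proteins (SAPAPs), Dlgap1 to Dlgap4. They were chosen by gene symbol, and all 8 were found among the 13661 genes of the authors' deposited table. The cerebral cortex of Chd8 KI mice, which carry a knock-in allele made to model duplication of the autism-related chromatin remodeller gene Chd8, was compared with that of wild-type (WT) mice, using poly(A) RNA-seq of 5 KI and 5 WT libraries, each from a male aged 8 weeks. How the KI allele was made, the promoter that drives it, the strain background and whether animals were littermates are not stated in the sources used here. What follows comes from the authors' table of that 1 comparison, which gives the mean normalised count over all 10 libraries, a log2 fold change (KI over WT), the standard error (SE) of that change and Wald test p-values. Values of single libraries were not analysed here, so the spread between animals enters only through the deposited standard errors.

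At excitatory synapses, PSD-95 family proteins line the membrane of the postsynaptic density and hold glutamate receptors, ion channels and adhesion proteins through their PDZ domains. Their guanylate kinase domain, which is not an active enzyme, binds SAPAPs, and the SAPAP carboxyl end binds the PDZ domain of Shank proteins, which in turn bind Homer. Dlg4 encodes PSD-95, the most studied of the group. Dlg2 encodes PSD-93, Dlg3 encodes SAP102, a scaffold linked to NMDA receptor delivery in young neurons, and Dlg1 encodes SAP97, which is also found outside synapses and in epithelia. In mice, loss of Dlgap3 leads to compulsive grooming tied to synapses of cortex on striatum, and human DLG3 is a gene of X-linked intellectual disability.

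The members are paralogs, so their sequences bear on whether reads of one could be counted for another. Among the coding sequences of GENCODE M21 on GRCm38 (the longest complete one per gene), pairwise identity ran from 65.1% to 67.3% within the PSD-95 family and from 58.8% to 64.3% within the SAPAPs. The longest run of identical bases between any pair within a family was 26 in both families. The most alike ungapped stretch of 60 bases in each family is shown here, with capitals at positions where the 4 genes are not all the same. In the PSD-95 family this stretch lies in the second PDZ domain, and 16 of its 60 positions differ:
Dlg1: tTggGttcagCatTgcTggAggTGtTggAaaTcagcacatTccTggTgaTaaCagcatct
Dlg2: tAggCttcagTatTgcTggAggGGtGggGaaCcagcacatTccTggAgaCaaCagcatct
Dlg3: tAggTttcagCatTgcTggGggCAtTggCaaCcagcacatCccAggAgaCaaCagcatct
Dlg4: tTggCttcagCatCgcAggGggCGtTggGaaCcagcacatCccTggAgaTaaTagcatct

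All 4 lie within 1 exon of the plus strand on GRCm38: Dlg1 at chr16:31793507-31793566 (exon 11 of 26), Dlg2 at chr7:91940002-91940061 (exon 12 of 28), Dlg3 at chrX:100772826-100772885 (exon 6 of 21) and Dlg4 at chr11:70031358-70031417 (exon 9 of 22).

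In the SAPAPs the most alike stretch is the end of the coding sequence, just before the stop codon, which encodes the tail that binds Shank, and 14 of its 60 positions differ:
Dlgap1: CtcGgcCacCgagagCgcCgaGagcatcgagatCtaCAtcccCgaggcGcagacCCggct
Dlgap2: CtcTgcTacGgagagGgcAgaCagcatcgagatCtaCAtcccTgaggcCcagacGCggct
Dlgap3: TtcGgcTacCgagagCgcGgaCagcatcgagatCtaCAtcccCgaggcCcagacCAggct
Dlgap4: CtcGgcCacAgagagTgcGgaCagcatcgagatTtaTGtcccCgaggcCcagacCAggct

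These stretches lie in the last exon of each gene, on the plus strand of GRCm38, at chr17:70818171-70818230 for Dlgap1, chr8:14846645-14846704 for Dlgap2, chr4:127236305-127236364 for Dlgap3 and chr2:156762840-156762899 for Dlgap4. No sequence of 50 bases was shared between any pair of members over all their annotated transcripts. At most 1.06% of a member's 50-base sequences (in Dlg4) also occurred in transcripts of any other gene.

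None of the 8 genes was called at an adjusted p under 0.05 in the authors' deposited table (DESeq2 Wald test with Benjamini-Hochberg adjustment over 13660 genes), where 10 genes, 0.0732% of those tested, did. All 8 had an adjusted p of 0.9999 there. At an unadjusted p under 0.05 there was 1 member, Dlg2, against 3.22% of all genes tested in the authors' deposited table. The log2 fold change was positive for 7 of the 8 members and negative for Dlg1, whereas 51.6% of all genes were positive in the authors' deposited table. The members' median log2 fold change was 0.052 there, against 0.0025 over all genes tested. Summed over the members, normalised counts were 64794 in KI and 62667 in WT, a difference of 3.39%. Over all genes tested the same difference was 0.831%. No member passed the threshold, and the summed difference was not tested. In whole tissue, a difference in how many cells express these genes cannot be told apart from one in their mRNA per cell.

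**Figure D1:**
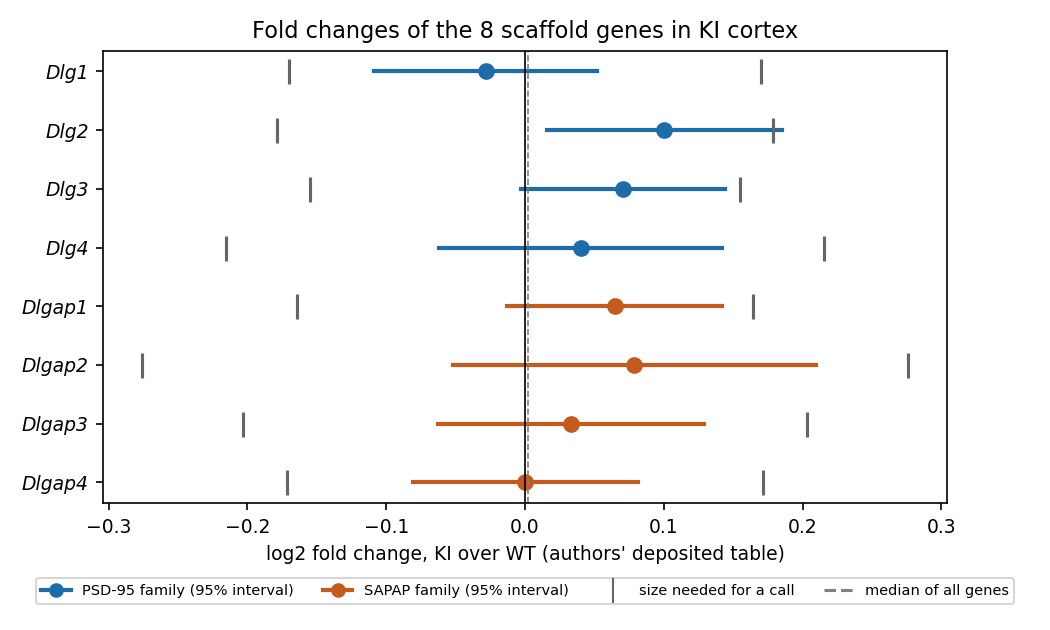
Log2 fold change of each member (KI over WT, horizontal axis) with its 95% interval from the authors' deposited table, coloured by family. The grey ticks mark the size at which each gene would have matched the smallest absolute Wald score among the called genes. No point reaches its tick: the values run from -0.028 for Dlg1 to 0.10 for Dlg2.

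In the PSD-95 family, Dlg2 (PSD-93, which anchors NMDA receptors and potassium channels) had the highest fold change and the smallest p. Its mean normalised count was 9294 in KI and 8668 in WT, as computed from the overall mean and fold change in the authors' deposited table. The authors' deposited table gave it a log2 fold change of 0.10 (SE 0.043, unadjusted p = 0.0197), or 7.22% above WT with a 95% interval of 1.12% to 13.7%. It stood 199th by p among 13660 genes. With the trend over transcript length described further on taken off, Dlg2 stood at a log2 fold change of 0.065, below Dlgap2 at 0.070, and its unadjusted p was 0.131. Dlg2 spans 1973059 bases on chromosome 7 (90476188 to 92449246), the longest of the 8 genes.

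Dlg3 (SAP102), on the X chromosome from 100767411 to 100818410, came next, with 4641 normalised counts in KI and 4420 in WT. Its log2 fold change in the authors' deposited table was 0.071 (SE 0.037, unadjusted p = 0.0594), and the interval of the change ran from -0.193% to 10.5%. Dlg4 (PSD-95), on chromosome 11 from 70017203 to 70045535, had 17436 normalised counts in KI and 16957 in WT. The authors' deposited table gave Dlg4 a log2 fold change of 0.040 (SE 0.052, unadjusted p = 0.439), with an interval from -4.19% to 10.3%. For PSD-95 mRNA, the most abundant of the 8 by count, a difference between KI and WT was not detectable at this precision.

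Dlg1 (SAP97), on chromosome 16 from 31663443 to 31873356, was the member with a lower mean in KI, at 3542 normalised counts, against 3613 in WT. Its log2 fold change in the authors' deposited table was -0.028 (SE 0.041, unadjusted p = 0.49), with an interval from -7.25% to 3.67%. The intervals of Dlg1 and Dlg2 overlapped between 1.12% and 3.67%. A test of one member against another needs values of single libraries and was not run, so the spread of fold changes within the family is a description.

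Among the SAPAPs, Dlgap2 had the highest fold change and the widest error, and is the least abundant of the 8. It lies on chromosome 8 from 14095776 to 14853426, and had 1517 normalised counts in KI and 1436 in WT. The authors' deposited table gave Dlgap2 a log2 fold change of 0.079 (SE 0.067, unadjusted p = 0.236), and its interval ran from -3.52% to 15.6%. Dlgap1 (GKAP, the SAPAP first found as a partner of PSD-95), on chromosome 17 from 69969073 to 70821413, had 13246 normalised counts in KI and 12667 in WT. Its log2 fold change in the authors' deposited table was 0.064 (SE 0.040, unadjusted p = 0.103), with an interval from -0.901% to 10.3%.

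Dlgap3, on chromosome 4 from 127168305 to 127237022, had 9226 normalised counts in KI and 9016 in WT, with a log2 fold change of 0.033 (SE 0.049, unadjusted p = 0.497) in the authors' deposited table. Dlgap4, on chromosome 2 from 156613633 to 156764363, had 5892 normalised counts in KI and 5890 in WT. At a log2 fold change of 0.00030 (SE 0.041, unadjusted p = 0.994) in the authors' deposited table, Dlgap4 was the member nearest to no difference, and its interval ran from -5.45% to 5.81%. The median log2 fold change was 0.049 over the 4 SAPAPs and 0.055 over the 4 PSD-95 family genes in the authors' deposited table.

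The precision of these values sets what could have been seen. The smallest absolute Wald score among the 10 called genes was 4.15 in the authors' deposited table. To match that score, Dlg3, which had the smallest standard error of the 8, would have needed a change of 11.4%. Dlgap2, which had the largest, would have needed one of 21.1%. The others would have needed between 12.1% (Dlgap1) and 16.1% (Dlg4). The exact score at which a further gene would pass was not computed and can be somewhat lower. The upper ends of the members' 95% intervals ran from 3.67% (Dlg1) to 15.6% (Dlgap2), and the lower ends from -7.25% (Dlg1) to 1.12% (Dlg2). For comparison, Chd8 itself, whose duplication the KI allele was made to model, had 2889 normalised counts in KI and 2059 in WT. Its log2 fold change was 0.49 (SE 0.10, Wald test adjusted p = 0.0044) in the authors' deposited table. Because the table's header does not name the direction, KI over WT was read from Chd8, and every sign here rests on that.

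**Figure D2:**
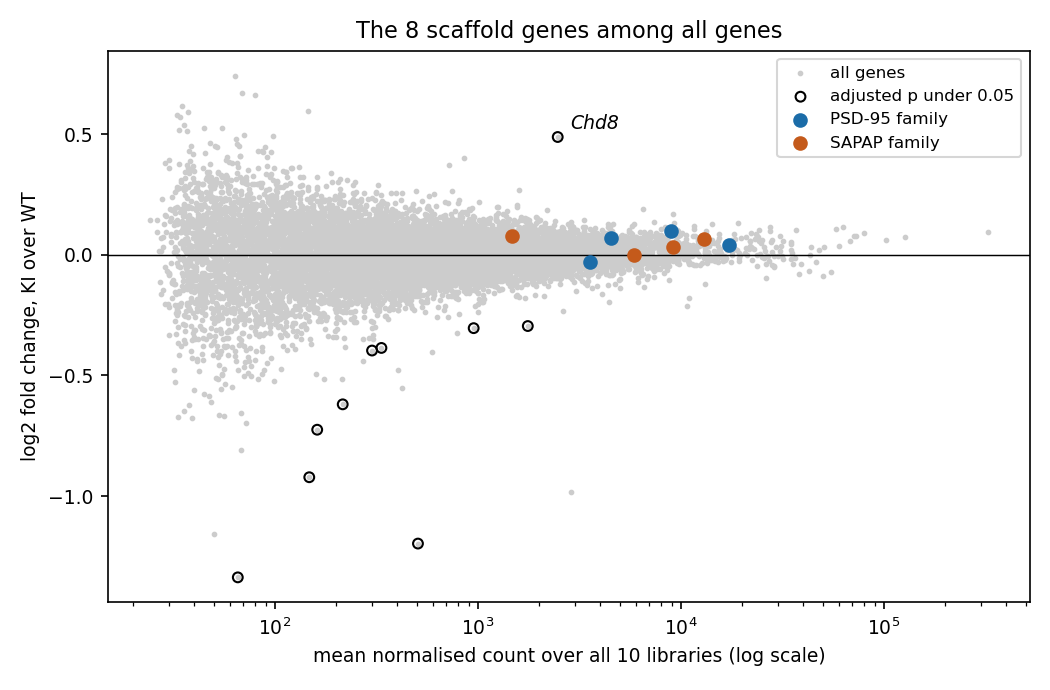
Log2 fold change (KI over WT, vertical axis) against mean normalised count over all 10 libraries (log scale, horizontal axis) for every gene, with the 8 members coloured and the 10 called genes circled. The members sit at counts of 1477 to 17197, inside the band of genes that were not called, while Chd8 stands above it at 0.49.

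Per kilobase of the longest GENCODE M21 transcript, Dlg4 had the highest level, at 2718 mean normalised counts per kb over all 10 libraries, followed by Dlgap3 at 2168 and Dlgap1 at 1806. These were exceeded by 2.39%, 3.21% and 4.27% of the genes with a known length. For the other members that share ran from 7.31% (Dlgap4) to 17.0% (Dlg1) and 30.5% (Dlgap2). The next levels per kb were 1214 for Dlgap4, 1150 for Dlg2 and 903 for Dlg3. Dlg1 at 582 and Dlgap2 at 328 mean normalised counts per kb were the lowest, so Dlg4 stood 8.29 times above Dlgap2 on this scale. The neighbours Dlgap4 and Dlg2 were closest, at a ratio of 1.06, and without values of single libraries no level could be set against its spread.

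The order of levels depends on the length used. Over the merged exons of all annotated transcripts, Dlgap3 was first at 2017 mean normalised counts per kb and Dlg4 came next at 1298, and Dlg3 came after them at 775. Dlg1 at 333 and Dlgap2 at 240 stayed lowest on both scales. GENCODE lists between 4 (Dlgap3) and 22 (Dlg4) transcripts per member, and the counts are for whole genes, so a shift between isoforms would not appear in them.

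**Figure D3:**
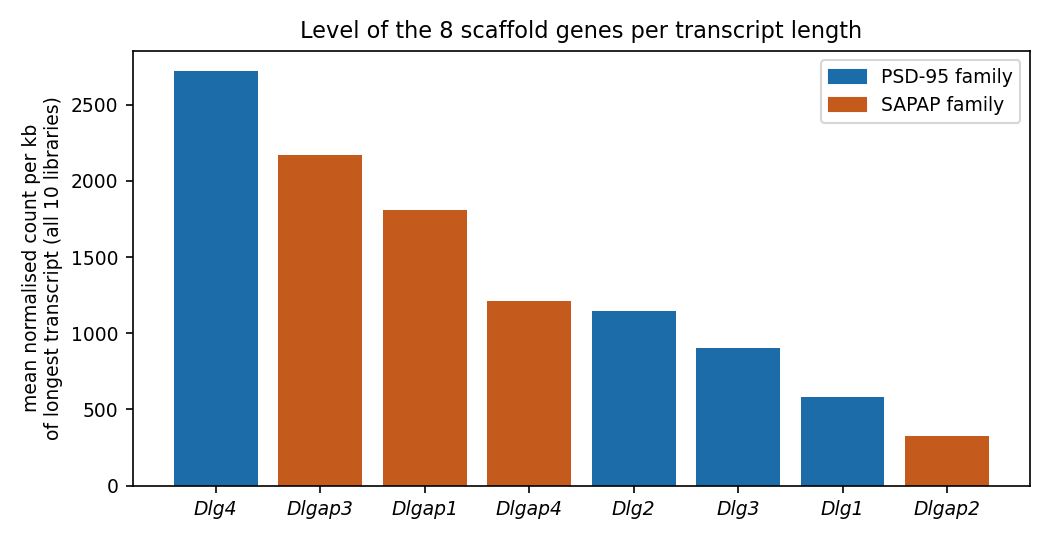
Mean normalised count over all 10 libraries per kb of the longest transcript (vertical axis, from 0) for the 8 members, in falling order and coloured by family. Dlg4 leads at 2718 and Dlgap2 is lowest at 328.

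Fold changes were also set beside the span of each gene and the length of its transcript. The 3 members that span over 500 kb, Dlg2, Dlgap1 and Dlgap2, had log2 fold changes of 0.10, 0.064 and 0.079 in the authors' deposited table. Of the 5 shorter ones, Dlg3 was in the same range, and the other 4 lay between -0.028 and 0.040. Among the 205 other genes with such a span, 150 (73.2%) were positive and the median log2 fold change was 0.044 in the authors' deposited table, a comparison chosen after these values were seen. Across 13496 genes, which are not independent and share the same 10 libraries, the Spearman correlation of span and log2 fold change was 0.15.

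For transcript length the correlation with log2 fold change was 0.24 over 13098 genes. The longest transcripts of the members ran from 4207 bases (Dlgap3) to 7813 bases (Dlg2), against a median of 3565 over all genes. A running median over genes of like transcript length gave values from 0.0010 for Dlgap3 to 0.035 for Dlg2. With that trend taken off, no member had an unadjusted p under 0.05, the members' median log2 fold change was 0.037, and 6 of 8 were positive, with Dlg1 at -0.047 and Dlgap4 at -0.011. Dlg3 then stood at 0.056. Among the other genes of long span that have a known transcript length, the median log2 fold change was 0.021 with the trend taken off and 128 were positive. How many of the 205 have a known length was not counted, so the 128 cannot be read as a share. The part of transcript length in the members' values was not tested beyond this.

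**Figure D4:**
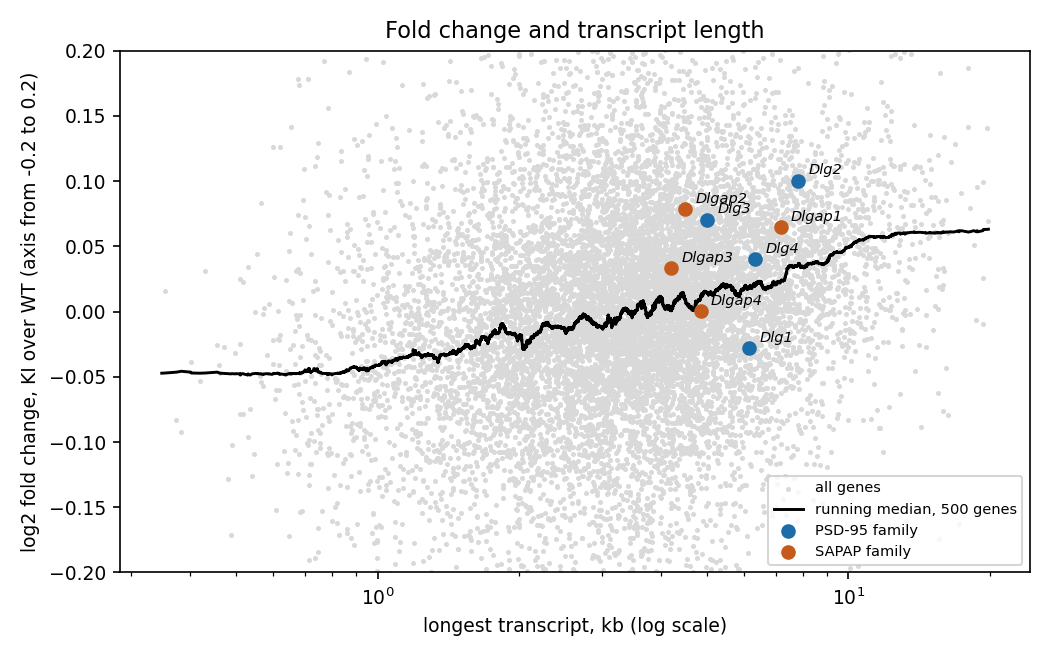
Log2 fold change (KI over WT, axis limited to between -0.2 and 0.2) against the length of the longest transcript (log scale, in kb) for all genes, with the running median over 500 genes as a line and the members labelled. Of the 8 members 6 lie above the line, and Dlg1 and Dlgap4 lie below it.

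The partners of these scaffolds were read from 8 lists of genes, and no gene of those lists was called at an adjusted p under 0.05 in the authors' deposited table (DESeq2). At an unadjusted p under 0.05 there were 3, a share of the tested partner genes close to the 3.22% of all genes tested. They were Gda (1 of 18 signalling partners), Cask (1 of 18 other MAGUKs and their partners) and Cacng5 (1 of 10 AMPA receptor subunits and TARPs). Closest to the SAPAPs are the Shank and Homer proteins, which build the next layer of the postsynaptic density. All 6 were tested, 5 were positive, and their median log2 fold change of 0.086 was the highest of the 8 lists in the authors' deposited table. Their transcripts are long, and with the length trend taken off their median was 0.042, still with 5 positive, while that of the palmitoylation enzymes described further on was 0.037. Shank1 had 7718 normalised counts in KI and 7017 in WT, and its log2 fold change was 0.14 (SE 0.082) in the authors' deposited table. Homer2 stood at 0.11 (0.067), Shank3 at 0.058 (0.037) and Shank2 at 0.061 (0.050) there, with log2 fold changes first and standard errors in parentheses. The exception was Homer1, which links metabotropic receptors to Shank, at -0.055 (0.072).

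The receptors that PSD-95 family proteins hold were read next. Of 6 NMDA receptor subunits tested out of 7, 3 were positive and the median log2 fold change was 0.020 in the authors' deposited table. With the length trend taken off, that median changed sign to -0.028 and 2 subunits were positive. The obligatory subunit Grin1 had 8084 normalised counts in KI and 7768 in WT, at a log2 fold change of 0.058 (SE 0.075) in the authors' deposited table, and Grin3a stood at 0.10 (0.097). Both Grin2c at -0.021 (0.080) and Grin2d at -0.023 (0.086) were negative there. Among AMPA receptor subunits and TARPs, the auxiliary proteins that tie AMPA receptors to PSD-95, 7 of 10 were positive and the median was 0.034 in the authors' deposited table, or 0.013 with the length trend taken off, again with 7 positive. The TARP-family gene Cacng5 had the most negative value, with 271 normalised counts in KI and 334 in WT and a log2 fold change of -0.30 (SE 0.12, unadjusted p = 0.011) in the authors' deposited table. Cacng8 at 0.062 (0.043), Gria2 at 0.086 (0.075) and Cacng7 at 0.047 (0.049) were positive there.

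Potassium channels of the Kv1 and Kir2 groups, whose tails bind MAGUK PDZ domains, had 3 of 8 members positive and a median log2 fold change of -0.010 in the authors' deposited table, or -0.018 with the length trend taken off. Kcna4, encoding Kv1.4, had 591 normalised counts in KI and 647 in WT, at -0.13 (SE 0.080) in the authors' deposited table. Kcnj4 stood at 0.035 (0.049), Kcnj2 at 0.085 (0.13) and Kcnj12 at -0.040 (0.10) there. Adhesion and secreted partners, such as the neuroligins, the LRRC4 proteins and the LGI1-ADAM22 pair, had 11 of 15 positive and a median of 0.024, or 9 positive and a median of 0.010 with the length trend taken off. In the authors' deposited table the log2 fold change was 0.061 (SE 0.044) for Lrrc4, 0.054 (0.046) for Nlgn3, 0.11 (0.099) for Lrfn2 and 0.047 (0.047) for Lgi1.

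Signalling and transport partners had 13 of 18 positive and a median log2 fold change of 0.029 in the authors' deposited table. With the length trend taken off, 8 of 18 were positive and the median was -0.0035. Gda encodes the guanine deaminase cypin, which binds PSD-95 and shapes dendrites, and had 7321 normalised counts in KI and 6848 in WT. The authors' deposited table gave Gda a log2 fold change of 0.096 (SE 0.043, unadjusted p = 0.0244). Iqsec2 stood at 0.058 (0.042) and the presynaptic scaffold gene Bsn at 0.13 (0.12) in the authors' deposited table. A list of enzymes that add or remove palmitate, the lipid that anchors PSD-95, had 6 of 10 positive and a median of 0.033. Whether each of them acts on PSD-95 was not examined here. Values of the palmitoyltransferases there were mixed, at log2 values of -0.093 (0.062) for Zdhhc7 and -0.088 (0.064) for Zdhhc5, and of 0.072 (0.051) for Zdhhc3 and 0.080 (0.076) for Zdhhc8, in the authors' deposited table.

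Other MAGUKs and their partners had 12 of 18 tested genes positive (22 listed) and a median log2 fold change of 0.038 in the authors' deposited table. With the length trend taken off, 10 of 18 were positive and the median was 0.027. Cask, a MAGUK that works with the neurexins and Lin7, had 1793 normalised counts in KI and 1658 in WT. Its log2 fold change in the authors' deposited table was 0.11 (SE 0.056, unadjusted p = 0.0434), and its partners Lin7b and Apba1 stood at 0.11 (0.069) and 0.074 (0.050). Card10, a scaffold of NF-kappaB signalling outside the blood lineage, stood at -0.26 (0.16) at a mean of only 98.1 normalised counts. Among the 4 genes of this list that were not tested was Dlgap5, the mitotic relative of the SAPAPs.

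**Figure D5:**
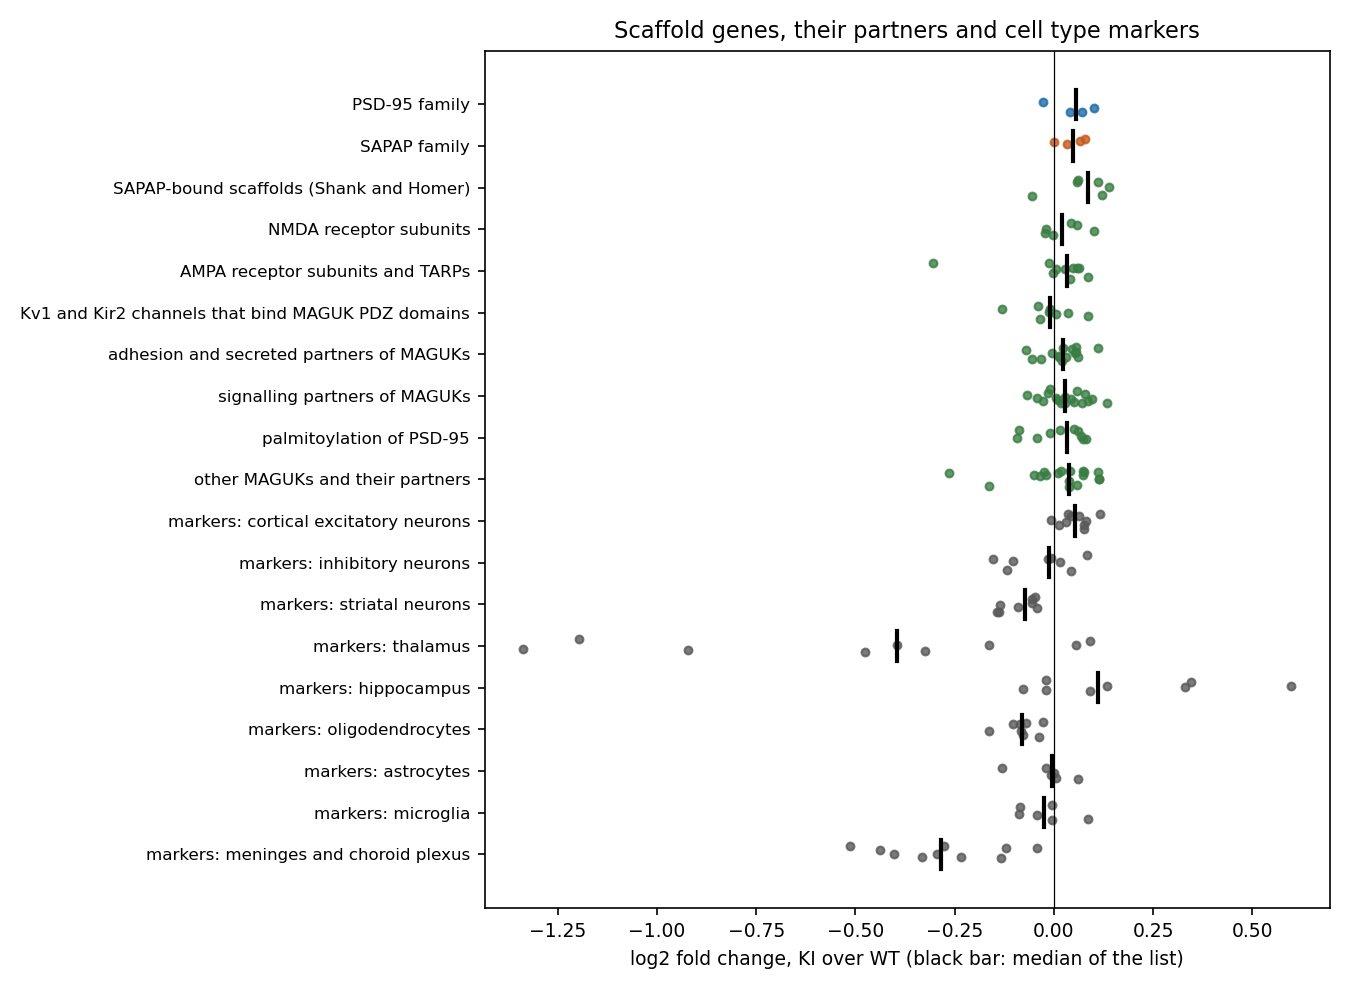
Log2 fold change (KI over WT, horizontal axis) of every tested gene of the 2 scaffold families, the 8 partner lists and the 9 marker lists, with a black bar at the median of each list. The scaffold and partner medians lie between -0.010 and 0.086, the thalamus median at -0.40 and the median of meninges and choroid plexus at -0.29.

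Markers of cell types and neighbouring tissue were read from the same table, and the markers that passed the threshold were 4 of the thalamus and 1 of the meninges. All 10 markers of cortical excitatory neurons were found, at mean normalised counts from 682 to 62823. Of these, 9 were positive with a median log2 fold change of 0.052 in the authors' deposited table, the same size as the scaffold median. With the length trend taken off, 7 were positive with a median of 0.048, against 0.037 for the scaffolds. Summed over the 10 markers, counts were 108595 in KI and 101931 in WT. Most of that difference lay in Camk2a, encoding a kinase subunit of the postsynaptic density, with 65354 normalised counts in KI and 60293 in WT and a log2 fold change of 0.12 (SE 0.042, unadjusted p = 0.0062, adjusted p = 0.9999) in the authors' deposited table. Slc17a7, the vesicular glutamate transporter of cortical excitatory neurons, stood at 0.062 (SE 0.039) in the authors' deposited table. All 8 oligodendrocyte markers were negative (median -0.081, summed counts 117706 in KI and 123841 in WT), and so were all 8 striatal markers (median -0.074, summed counts 26911 in KI and 28514 in WT). Thalamic markers had 7 of 9 negative (sums 2461 in KI and 3429 in WT), with Tnnt1, Tcf7l2, Ramp3 and Prkcd past the threshold in the authors' deposited table. All 10 markers of meninges and choroid plexus were negative (sums 16427 in KI and 18338 in WT), with Igf2 past the threshold. The lowest mean normalised count in the authors' deposited table was 24.4, so a marker at 0 could not have been listed. Other lists had median log2 fold changes of -0.012 (inhibitory neurons, 3 of 8 positive), 0.11 (hippocampus, 5 of 8), -0.0038 (astrocytes, 3 of 6) and -0.025 (microglia, 1 of 6). The part of tissue composition in the members' values was not tested.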

How the data were processed

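Poly(A) RNA from the cortex of 5 Chd8 KI and 5 WT male mice was sequenced. Per the submitters' processing notes, Trimmomatic 0.39, HISAT2 2.1.0, featureCounts 2.0.0 and DESeq2 1.26.0 were used with mm10; how each was run is not stated in those notes, nor are the annotation, the use of strand, any filter or the model. Per the file headers, the authors' deposited table holds a mean of normalised counts per gene (a signal, scaled by the authors' size factors), a log2 fold change with its standard error, a Wald score, a p-value and an adjusted p. The Wald score equalled fold change over standard error, and the adjusted p equalled a Benjamini-Hochberg adjustment over 13660 genes. Depth per library is unknown.

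Symbols came from RefSeq for GRCm38.p6 (13497 of 13661 gene numbers) and lengths from GENCODE M21 (13098 genes). Group means of normalised counts were computed from the overall mean and the fold change, giving each of the 10 libraries equal weight, and intervals are 95% normal intervals from the deposited standard error. They and the sums of lists are estimates with no error of their own. Coding sequences were aligned with MAFFT 7.526. Recentring and length correction were tested on simulated data of 13098 genes, with 200 changed. Removing an added length trend recovered 34.8% of changes of 0.25 and 79.4% of changes of 0.5 on the log2 scale, with 6.12% and 5.47% of calls false. With no trend added, 34.5% and 79.25% were recovered, and with an added shift recentred, 34.65% and 79.25%. These simulations had independent genes and a trend linear in log length. Changes as small as those of the members were not simulated.

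The members and the 17 lists were chosen with earlier results of these data known, and no p was adjusted over a list. All 8 members, Chd8 and up to 4 genes with the smallest p in each of the 8 partner lists are named by rule. The rule does not cover the marker lists, of which only some genes are named. Homer1 and Dlgap5 were added after the values were seen. One gene that the rule names is not reported here. Alternatives were other centrings, a length correction, count minimums, thresholds and leaving out members that overlap another gene.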

Additional observations from a re-analysis of the deposited data

How the results depend on the processing

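No member passed under recentring on the median of all genes or of genes with a mean of at least 200, removal of the length trend, count minimums of 50 and 200, or thresholds of 0.1 and 0.01. The same held without the thalamic, meningeal and choroid plexus markers, an alternative chosen after seeing the data. That step changes only the adjustment and leaves each member's fold change and unadjusted p as they were. It therefore cannot show what such tissue does to the members' values. A threshold of 0.01 likewise could not have added a member. An unadjusted p under 0.05 gave 1 member and 3 partner genes, and 3.22% of all genes tested. The members' median log2 fold change kept its sign and ran from 0.037 (length trend removed) to 0.055 (the 2 members that overlap no annotated gene, Dlg3 and Dlg4, both positive, that is 2 positive members in place of 7). Dlgap4 was -0.0022 after recentring on all genes and -0.011 with the length trend removed, so 6 members were then positive. Removing the length trend changed the sign of the median of the NMDA receptor (-0.028) and signalling partner (-0.0035) lists and of no other partner list. The smallest unadjusted p, of Dlg2, was 0.131 with that trend removed. No paired analysis was possible because values of single libraries were not analysed here. For the same reason, leaving out libraries, another normalisation and a second tool were not run.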
